A study of Nematostella vectensis with 84 samples.

Results

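The pl1 cells are a small secretory cell population of the adult starlet sea anemone, Nematostella vectensis, set apart by the authors as fine cluster 19 of their annotation, with the name "Secretory - pl1". They were taken as every cell with that cluster name in the deposited cell table, which gave 252 of 12352 cells (2.04%). They made up 11.3% of the 2222 cells of the broad cluster Secretory, and ranked 20 by size among 45 fine clusters and 4 among the 11 of Secretory. The cell table holds categories and no molecule counts, so neither the name pl1 nor the broad cluster could be checked against marker genes, and the sources used here do not spell out the abbreviation.

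Secretory or gland cells of sea anemones release proteins from granules into the gut or onto the body surface, and their best known products are digestive enzymes such as trypsins and chitinases. The mesenteries, folds of the inner body wall that hang into the gut, are rich in such cells. In this species SoxC is known from progenitor cells whose offspring include neurons and gland cells, whereas Elav is best known as a reporter of neurons. The reporter KikGR, a fluorescent protein, is green when first made, and light turns it permanently red. Green protein seen days after a complete photoconversion is therefore newly made, but how complete the conversion was is not known from these files.

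The animals were adults of 6 to 8 weeks, heterozygous for a stable KikGR transgene driven by Elav, FoxL2 or SoxC, and their cells were sorted 2, 4 or 7 days after photoconversion. The tissue was body wall with mesenteries, and single cells went into 384-well plates that were processed by MARS-seq, in which each well's RNA is barcoded before sequencing. Elav>KikGR gave 4 dissociations in 1% DMSO and 4 with no treatment stated, called untreated here. FoxL2>KikGR gave 5 in 1% DMSO and 5 untreated, and all 9 SoxC>KikGR dissociations were in 1% DMSO. All untreated wells belonged to 1 demultiplexing pool that held no DMSO wells, so medium and pool cannot be told apart. Elav and SoxC cells were all sorted in the KikGR+ gate, and FoxL2 cells also in an epithelial-depleted gate (untreated animals) and a gate named New (DMSO animals). A driver marks the cells in which it is active or was recently active, so a share of sorted cells is not the share in the animal. The replicate was the dissociation, and the labels do not say how many animals each one held, so p-values measure the spread between dissociations.

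Every one of the 27 dissociations held pl1 cells, from 4 to 24 with a median of 8, out of 245 to 995 cells in all. Of the 84 libraries, 9 held none and the richest held 8. The share of pl1 cells per library ran from 0% to 5.37%. Between libraries of the same dissociation the SD of that share was 1.05 percentage points, against 1.18 from counting alone. By line the pl1 cells numbered 58 in Elav, 129 in FoxL2 and 65 in SoxC. By gate they numbered 76 in the epithelial-depleted gate, 4 in New and 172 in KikGR+. The small counts set the precision of everything that follows, and the intervals given for single dissociations (95% Wilson) and the limits given for counts of 0 cover counting error only.

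The mean share of pl1 cells among all sorted cells was close in the 3 reporter lines. It was 2.18% ± 0.872 in Elav (SD, n = 8 dissociations), 2.12% ± 0.947 in FoxL2 (SD, n = 10) and 2.03% ± 0.978 in SoxC (SD, n = 9). The Elav dissociations ran from 1.32% to 3.39% with a median of 2.00%. The FoxL2 dissociations ran from 0.533% to 3.36% with a median of 2.07%, and the SoxC ones from 0.774% to 4.21% with a median of 1.80%. The 3 groups overlapped over most of their ranges. The distance between the highest and the lowest line mean was 0.141 percentage points, the smallest of all 45 fine clusters, and the line did not pass the test (permutation over dissociations, p = 0.951, Benjamini-Hochberg adjusted over 45 clusters p = 0.951). In that test 68.9% of fine clusters passed at an adjusted p of 0.05. The nearest cluster in that order was 42 - Neural 1 - Aeq5-like1, with a distance of 0.148 points (permutation, adjusted p = 0.883). Among DMSO dissociations alone the distance for pl1 was 0.854 points (permutation, adjusted p = 0.340). The DMSO means were 2.16% ± 0.972 in Elav (SD, n = 4), 1.30% ± 0.460 in FoxL2 (SD, n = 5) and 2.03% ± 0.978 in SoxC (SD, n = 9). The untreated means were 2.19% ± 0.910 in Elav (SD, n = 4) and 2.93% ± 0.380 in FoxL2 (SD, n = 5). The FoxL2 mean over both media fell between its highest DMSO value of 1.72% and its lowest untreated value of 2.41%. With both media, leaving out each dissociation in turn gave distances from 0.0577 points (without SoxC dissociation 1) to 0.413 (without SoxC dissociation 7), with ranks of 45 to 41 among the 45 clusters.

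No pair of lines passed for pl1. Elav minus SoxC was 0.141 points (exact permutation, adjusted p = 0.821), where 62.2% of fine clusters passed. FoxL2 minus SoxC was 0.0833 points (exact permutation, adjusted p = 0.899), where 55.6% passed. Elav minus FoxL2 was 0.0577 points (exact permutation, adjusted p = 0.913), where 22.2% passed. These differences were small beside the spread within a line, and their direction changed with the samples taken: FoxL2 minus SoxC was -0.167 points in the KikGR+ gate alone and -0.732 in DMSO dissociations alone, and Elav minus FoxL2 was -0.739 in untreated dissociations alone. None of these 3 passed its test. A p that misses the threshold does not show that the lines were equal. Counting alone would give an SD of 0.788 points in Elav, 0.605 in FoxL2 and 0.729 in SoxC, close to the observed SD in Elav and below it in the other two. The FoxL2 spread spans both media. Within a medium its SD did not exceed that from counting, at 0.460 against 0.469 in DMSO (n = 5) and 0.380 against 0.709 untreated (n = 5).

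**Figure D1:**
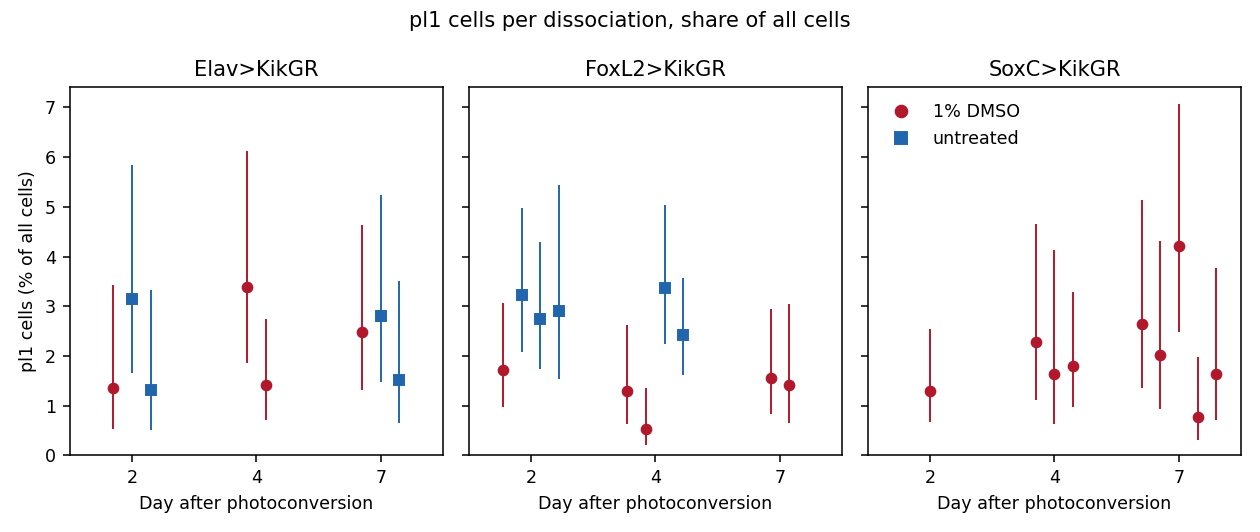
Share of pl1 cells among all cells (vertical axis, percent) in each dissociation of the 3 lines, by day after photoconversion; red circles are 1% DMSO, blue squares untreated, and bars are 95% Wilson intervals. All gates are counted. The line means lie between 2.03% and 2.18%, and within FoxL2 the 5 DMSO dissociations lie below the 5 untreated ones, which all include epithelial-depleted cells.

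The other 10 Secretory clusters all had lower mean shares in Elav and in FoxL2 than in SoxC, with some of them passing the test. For Elav minus SoxC all 10 had a negative difference of the share of all cells, with a median of -1.20 points, and 5 of the 10 passed the test, where 26.7% of all fine clusters passed with a negative difference. For FoxL2 minus SoxC all 10 were negative too, with a median of -1.06 points, and 4 passed, where 24.4% of all did. Among DMSO dissociations alone the 10 kept these signs, with 1 passing for Elav minus SoxC and 0 for FoxL2 minus SoxC. There pl1 had 0.122 points for Elav minus SoxC (exact permutation, adjusted p = 0.901). For FoxL2 minus SoxC it was negative like the 10, at -0.732 points (exact permutation, adjusted p = 0.270). With Neural 1 cells left out of the total, 8 of 10 were negative for Elav minus SoxC, with 0 passing, and 9 of 10 for FoxL2 minus SoxC, with 2 passing. In that setting pl1 had 1.74 and 1.1 points, neither passing (exact permutation, adjusted p = 0.0692 and 0.335). The share of all fine clusters passing was not counted among DMSO dissociations alone or without Neural 1. Whether the drop in calls there is particular to Secretory clusters is therefore not known, and the DMSO setting also holds fewer dissociations. Among the 10, the similarly named pl2 (cluster 36) averaged 0.600% ± 0.275 in Elav (SD, n = 8) and 0.537% ± 0.328 in FoxL2 (SD, n = 10), against 1.64% ± 0.709 in SoxC (SD, n = 9). Elav minus SoxC was -1.04 points for pl2 (exact permutation, adjusted p = 0.00826) and FoxL2 minus SoxC was -1.11 (exact permutation, adjusted p = 0.00267). The Elav line held 58 pl1 and 17 pl2 cells, the FoxL2 line 129 and 32, and the SoxC line 65 and 56. The largest difference among Secretory clusters was that of NEP2/8 (cluster 12), with a difference of -5.81 points for Elav minus SoxC (exact permutation, adjusted p = 0.0218) and -6.14 for FoxL2 minus SoxC (exact permutation, adjusted p = 0.00181). Without Neural 1 cells in the total, both lost their Elav minus SoxC calls (exact permutation, adjusted p = 0.0844 for pl2 and 0.0742 for NEP2/8), and both still passed for FoxL2 minus SoxC (adjusted p = 0.00816 and 0.00572).

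Within the Secretory cells, pl1 was a larger part in Elav than in SoxC. The Secretory share of all cells averaged 13.1% ± 3.82 in Elav (SD, n = 8), and FoxL2 had 15.3% ± 4.76 (SD, n = 10), against 28.9% ± 9.23 in SoxC (SD, n = 9). Of these Secretory cells, pl1 took 17.0% ± 5.08 in the Elav line, 14.7% ± 7.34 in the FoxL2 line and 6.96% ± 1.86 in the SoxC line (SD, same n). The Elav values ran from 8.00% to 23.8% with a median of 18.7%, those of FoxL2 from 5.69% to 25.0% with a median of 14.8%, and those of SoxC from 3.42% to 9.62% with a median of 7.14%. Of the 8 Elav dissociations, 1 lay within the SoxC range, and the other 7 lay above it.

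The difference between lines passed the test over the 39 fine clusters that share a broad cluster with at least 1 other (distance of line means 10.1 points, permutation, adjusted p = 0.0165), where 20.5% of clusters passed. Elav minus SoxC was 10.1 points and passed (exact permutation, p = 0.000123, adjusted p = 0.00241), where 10.3% of clusters passed. FoxL2 minus SoxC was 7.72 points, short of the threshold (exact permutation, p = 0.00888, adjusted p = 0.0791), where 15.4% passed. It passed without FoxL2 dissociation 14 (8.72 points, exact permutation, adjusted p = 0.0337) or 17 (8.62 points, adjusted p = 0.0407), both in DMSO. Elav minus FoxL2 was 2.33 points (exact permutation, adjusted p = 0.624), where 0.0% passed. None of the other 10 Secretory clusters passed for Elav minus SoxC, their differences running from -12.7 points (NEP2/8, adjusted p = 0.174) to 2.94 (trypsin, cluster 26, adjusted p = 0.218).

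Because all SoxC animals had DMSO, the comparison with SoxC was also made among DMSO dissociations. There pl1 averaged 14.7% ± 6.67 of Secretory cells in Elav (SD, n = 4), 8.17% ± 2.63 in FoxL2 (SD, n = 5) and 6.96% ± 1.86 in SoxC (SD, n = 9). The 4 Elav values were 8.00%, 12.3%, 14.5% and 23.8%, and the 5 FoxL2 values were 5.69%, 6.52%, 7.27%, 9.02% and 12.3%. FoxL2 overlapped SoxC along most of its range. Elav minus SoxC was 7.70 points and no longer passed (exact permutation, p = 0.00420, adjusted p = 0.0701), while the test of all 3 lines did (adjusted p = 0.0283). FoxL2 minus SoxC was 1.21 points (exact permutation, adjusted p = 0.626). NEP2/8 made up 22.2% ± 13.4 of Secretory cells in SoxC (SD, n = 9). With NEP2/8 left out of the Secretory total, Elav minus SoxC over all dissociations was 9.60 points (exact permutation, adjusted p = 0.0174).

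**Figure D2:**
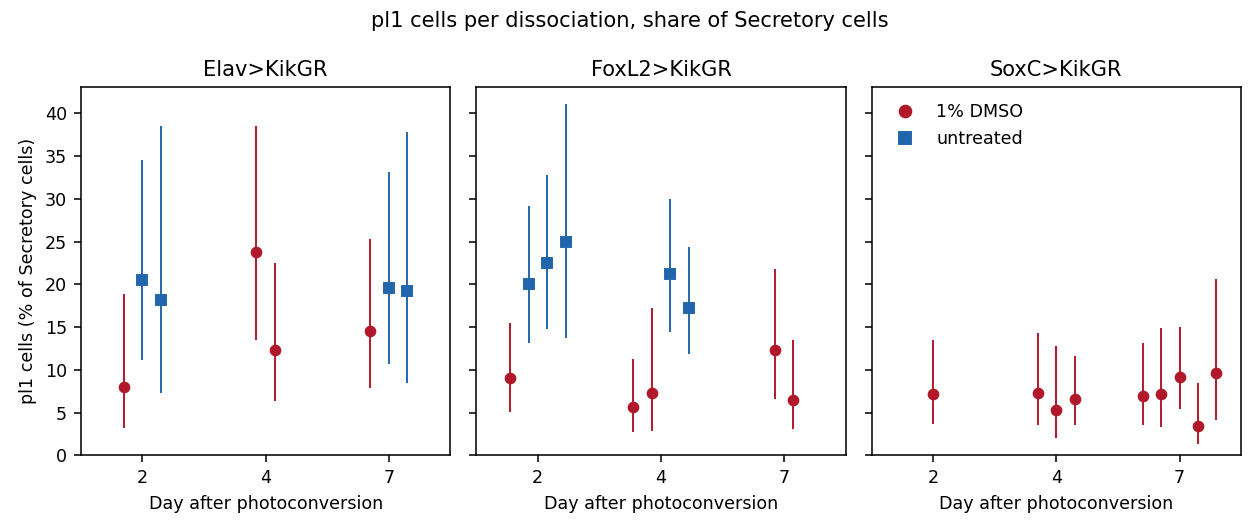
Share of pl1 cells among Secretory cells (vertical axis, percent) in each dissociation, by line and day after photoconversion; red circles are 1% DMSO, blue squares untreated, and bars are 95% Wilson intervals. All gates are counted. The SoxC values stay between 3.42% and 9.62%. At the days of Elav and FoxL2 with both media the DMSO values (highest 14.5%) lie below the untreated ones (lowest 17.3%).

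The pl1 share of Secretory cells was lower in DMSO than in untreated dissociations. DMSO and untreated dissociations of the same line and day existed for Elav at days 2 and 7 and for FoxL2 at days 2 and 4. There pl1 made up 8.90% ± 3.37 of Secretory cells in DMSO (SD, n = 5) and 20.4% ± 2.32 in untreated dissociations (SD, n = 9). The untreated SD was below that from counting alone, at 0.939 against 7.11 points in Elav (n = 4) and 2.87 against 4.67 in FoxL2 (n = 5). The narrow untreated range therefore understates the counting error: Elav dissociation 21 held 4 pl1 cells among 22 Secretory cells (interval 7.31% to 38.5%). In Elav the DMSO values were 8.00% at day 2 and 14.5% at day 7, against 18.2% and 20.5% untreated at day 2 and 19.2% and 19.6% untreated at day 7. In FoxL2 the DMSO values were 9.02% at day 2 and 5.69% and 7.27% at day 4, against 20.0%, 22.5% and 25.0% untreated at day 2 and 17.3% and 21.2% untreated at day 4. The 5 DMSO values ran from 5.69% to 14.5% and the 9 untreated ones from 17.3% to 25.0%, without overlap with all gates counted. All 5 untreated FoxL2 dissociations include epithelial-depleted cells, a gate that no DMSO dissociation has. In KikGR+ cells alone the ranges overlapped. Untreated FoxL2 dissociations 10, 12 and 13 then had 16.0%, 10.5% and 26.1%. DMSO dissociations 11, 14 and 15 of that line had 10.8%, 5.69% and 6.67%. Within each day the untreated FoxL2 values still lay above the DMSO ones. Outside these days, 1 of the 2 Elav dissociations in DMSO at day 4 reached 23.8%, inside the untreated range.

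The difference, averaged over line and day, was -10.6 points and passed the test (exact permutation within line and day, p = 0.00463, the smallest that 216 arrangements allow, adjusted p = 0.0361). In that comparison 12.8% of the 39 clusters passed and 7.69% passed with a negative difference. Since 5 clusters shared the smallest p, the adjustment and the number of arrangements decide this call. Leaving out each of the 14 dissociations in turn gave differences from -12.5 to -9.64 points, always at the smallest p possible, but only 4 of the 14 fits passed after adjustment. Those 4 left out Elav dissociation 21 or FoxL2 dissociation 10, 18 or 19, and the call was lost without Elav 20, 22, 25, 26 or 27 and without FoxL2 11, 12, 13, 14 or 15 (adjusted p from 0.0542 to 0.120). Within FoxL2 alone the difference was -13.1 points (exact permutation, p = 0.0417, the smallest of 24 arrangements) and within Elav alone -8.10 points (exact permutation, p = 0.111, the smallest of 9). In the KikGR+ gate alone, over Elav and FoxL2, the difference was -8.38 points and did not pass (exact permutation, adjusted p = 0.120). FoxL2 dissociations 18 and 19 had no KikGR+ cells, so that fit had fewer than 216 arrangements and a larger smallest p. Within each line and day its DMSO values all lay below the untreated ones. It was thus at its smallest p, and the adjustment and the number of arrangements decided that call too.

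Of all cells, pl1 was 1.47% ± 0.709 in DMSO (SD, n = 5) and 2.60% ± 0.731 in untreated dissociations (SD, n = 9) of the same lines and days. That difference of -0.943 points missed the threshold (exact permutation, p = 0.0741, adjusted p = 0.175), where 11.1% of 45 clusters passed. In FoxL2 the DMSO values were 1.72% at day 2 and 0.533% and 1.29% at day 4, and the untreated values were 2.75%, 2.91% and 3.23% at day 2 and 2.41% and 3.36% at day 4. With all gates counted, all DMSO values were lower, and the FoxL2 difference was -1.61 points (exact permutation, p = 0.0417, the smallest of 24). In KikGR+ cells alone the DMSO values were 2.41% at day 2 (dissociation 11) and 1.29% and 0.752% at day 4 (14 and 15). The untreated ones were 2.54% at day 2 (dissociation 10) and 1.27% and 3.70% at day 4 (12 and 13). At day 4 untreated dissociation 12 then lay below DMSO dissociation 14. In Elav the values were 1.35% in DMSO against 1.32% and 3.14% untreated at day 2, and 2.48% in DMSO against 1.52% and 2.80% untreated at day 7. The Elav DMSO values lay within the untreated range at both days (difference -0.278 points, exact permutation, p = 0.778). Whether the medium differed in its effect between the lines was not tested.

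The rest of the Secretory cells had a difference of the opposite sign, which did not pass. Secretory cells other than pl1 were 15.1% ± 5.32 of all cells in DMSO (SD, n = 5) and 10.1% ± 2.64 in untreated dissociations (SD, n = 9), a difference of 5.29 points (exact permutation, p = 0.0509). NEP2/8 was 2.17% ± 1.21 of all cells in DMSO and 0.274% ± 0.176 in untreated dissociations, a difference of 1.97 points that passed (exact permutation, adjusted p = 0.0417). As a share of Secretory cells NEP2/8 rose by 10.2 points (exact permutation, adjusted p = 0.0361) and the other 9 Secretory clusters did not pass, pl2 among them (0.961 points, adjusted p = 0.492). With NEP2/8 left out of the total, DMSO minus untreated was -9.72 points for pl1 (exact permutation, adjusted p = 0.0440). The share of sorted wells that reached the cell table also moved with the medium, at 73.0% ± 6.19 in DMSO and 82.8% ± 4.33 in untreated dissociations (difference -10.3 points, exact permutation, p = 0.00926), and its part in these results was not tested. The libraries without a well list were all DMSO, and some belonged to FoxL2 dissociation 14 and Elav dissociation 22 of this comparison. Counted per sorted well, DMSO minus untreated was -1.23 points for pl1 (exact permutation, adjusted p = 0.0694).

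**Figure D3:**
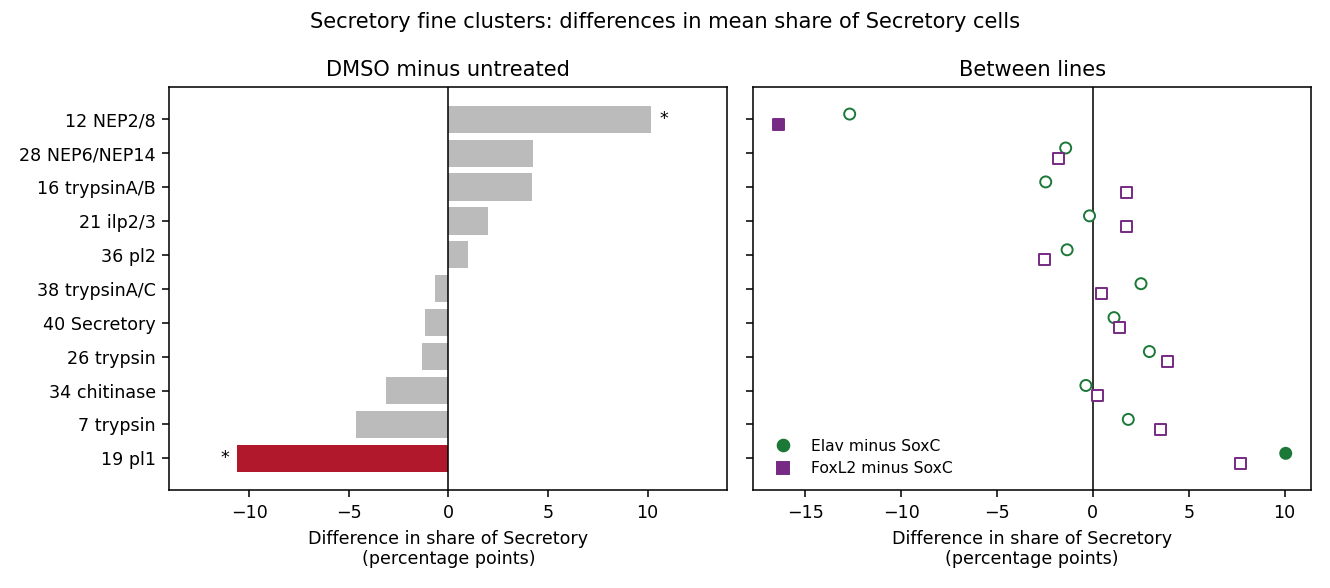
Differences in mean share of Secretory cells (horizontal axis, percentage points) for the 11 Secretory clusters; left, DMSO minus untreated within line and day, with * for an adjusted p under 0.05; right, Elav minus SoxC (circles) and FoxL2 minus SoxC (squares), filled where the adjusted p was under 0.05. The pl1 bar reaches -10.6 points and NEP2/8 10.2, and pl1 has the most positive values against SoxC, 10.1 for Elav and 7.72 for FoxL2. The right panel takes all dissociations, and those of SoxC were all in DMSO while Elav and FoxL2 include untreated ones.

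The sorting gates could be compared within FoxL2 dissociations only. In the 3 untreated dissociations sorted through both gates, pl1 was 3.40% ± 1.07 of epithelial-depleted cells and 2.51% ± 1.22 of KikGR+ cells (SD, n = 3). The epithelial-depleted values were 4.01%, 4.02% and 2.16%, and the KikGR+ values of the same dissociations were 2.54%, 1.27% and 3.70%. It was higher in the epithelial-depleted gate in 2 of 3, and the mean difference of 0.894 points did not exceed the spread between pairs (exact sign-flip permutation, p = 0.75, where 3 pairs cannot give less than 0.25). Of Secretory cells the 2 gates gave 21.2% ± 4.91 and 17.5% ± 7.89 in the same order (exact permutation, p = 0.75). A further 2 untreated FoxL2 dissociations had only the epithelial-depleted gate, with 2.75% and 2.91% pl1 cells.

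The New gate held few pl1 cells. It gave 3 of 306 cells (0.980%, interval 0.334% to 2.84%) and 1 of 351 (0.285%, interval 0.0503% to 1.60%). The KikGR+ gate of the same 2 dissociations gave 8 of 332 (2.41%, interval 1.23% to 4.68%) and 3 of 399 (0.752%, interval 0.256% to 2.19%). The New values were lower in both, but the intervals overlap and 2 pairs cannot give an exact permutation p under 0.5, which is the value found for the difference of -0.948 points. Of Secretory cells the shares were 8.13% in New and 8.74% in KikGR+. Within KikGR+ cells of FoxL2, pl1 was 1.48% ± 0.601 in DMSO (SD, n = 5) and 2.51% ± 1.22 in untreated dissociations (SD, n = 3). The days are not matched here: the DMSO group includes dissociations 16 and 17 of day 7 (1.56% and 1.41%), a day without untreated FoxL2 dissociations. Since 5 of 5 untreated FoxL2 dissociations include epithelial-depleted cells and no DMSO one does, part of the FoxL2 contrast between media cannot be told apart from the gate.

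**Figure D4:**
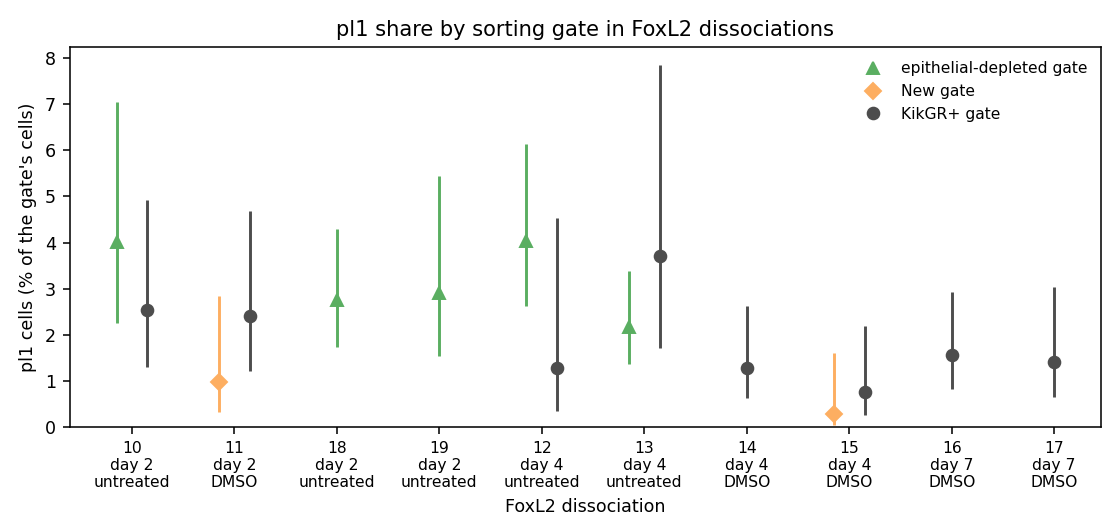
Share of pl1 cells (vertical axis, percent of the gate's cells) in the 10 FoxL2 dissociations by sorting gate; triangles are epithelial-depleted, diamonds New, circles KikGR+, and bars are 95% Wilson intervals. Epithelial-depleted values lie between 2.16% and 4.02%, New values at 0.285% and 0.980%, and KikGR+ values between 0.752% and 3.70%.

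No change of the pl1 share with the day passed the test. In Elav it averaged 1.93% ± 1.04 at day 2 (SD, n = 3), 2.40% ± 1.40 at day 4 (SD, n = 2) and 2.27% ± 0.668 at day 7 (SD, n = 3). In SoxC it was 1.30% in the single dissociation of day 2, 1.91% ± 0.340 at day 4 (SD, n = 3) and 2.26% ± 1.28 at day 7 (SD, n = 5). In FoxL2 it was 2.65% ± 0.650 at day 2 (SD, n = 4), 1.90% ± 1.24 at day 4 (SD, n = 4) and 1.48% ± 0.107 at day 7 (SD, n = 2). The FoxL2 order moved with the medium, since 3 of 4 dissociations were untreated at day 2, 2 of 4 at day 4 and 0 of 2 at day 7. The common slope within lines was -0.00990 points per day (permutation within lines, adjusted p = 0.982). For this slope 0.0% of fine clusters passed, with 3 of 45 under an unadjusted p of 0.05.

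Within Secretory cells the slope was -0.463 points per day (permutation, adjusted p = 0.972), where again 0.0% of clusters passed and 2 of 39 had an unadjusted p under 0.05. Slopes of single lines were 0.413 points per day in Elav (exact permutation, p = 0.643), -2.0 in FoxL2 (exact permutation, p = 0.124) and 0.146 in SoxC (exact permutation, p = 0.687). The differences of slopes between lines did not pass (exact permutation, smallest adjusted p = 0.553 within Secretory and 0.722 for the share of all cells). Among DMSO dissociations alone both common slopes were positive, 0.123 points per day for the share of all cells and 0.375 within Secretory, and neither passed.

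The reporter colour was given for 158 pl1 cells, all from the KikGR+ gate, of which 42 were green, 64 orange and 52 red. The other 94 had no colour class, and 14 of these came from the KikGR+ gate. The rule behind the classes is not given in the sources used here. In Elav 3 of 16 coloured pl1 cells were green at day 2, 5 of 18 at day 4 and 9 of 19 at day 7. In SoxC 0 of 8 were green at day 2, which allows a share of up to about 37.5%, then 6 of 18 at day 4 and 17 of 36 at day 7. This limit for a count of 0 is an approximation, 3 cells over the number of coloured cells, and not a Wilson interval. In FoxL2 1 of 11 was green at day 2, 0 of 17 at day 4, which allows up to about 17.6% by the same rule, and 1 of 15 at day 7. Pooled over dissociations, the largest class of FoxL2 pl1 cells was orange at day 2 (7 of 11), red at day 4 (12 of 17) and orange at day 7 (8 of 15). Single dissociations differed from the pool. At day 4 dissociation 15 had 2 orange and 1 red. At day 7 dissociation 16 had 6 orange and 3 red, and dissociation 17 had 2 orange and 3 red. A change of the orange or red share with the day was not tested.

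For the tests, a dissociation needed at least 5 coloured pl1 cells, which left 18. The green share was 39.9% ± 24.3 in Elav (SD, n = 6), 5.83% ± 8.12 in FoxL2 (SD, n = 5) and 36.4% ± 24.5 in SoxC (SD, n = 7). The other Secretory cells of the same dissociations had the same order of means, with 41.0% ± 23.5 green in Elav, 13.0% ± 7.99 in FoxL2 and 36.9% ± 12.1 in SoxC (SD, same n). Among pl1 cells the Elav values ran from 22.2% to 80.0%, the FoxL2 values from 0% to 16.7% and the SoxC values from 0% to 76.9%. The Elav and FoxL2 ranges did not overlap at this minimum, and 1 SoxC dissociation, the only one of day 2, lay in the FoxL2 range. The minimum left out Elav dissociation 21, where 0 of 4 coloured pl1 cells were green. Elav minus FoxL2 was 34.1 points and did not pass (exact permutation, p = 0.00649, adjusted over the pairs and clusters p = 0.0602), where 3.7% of 27 clusters passed. The 5 other Secretory clusters tested for this pair had a median of 34.1 points too, with 0 passing. For pl1 the difference passed when dissociations with at least 3 coloured pl1 cells were taken in, at 29.9 points (exact permutation, adjusted p = 0.0342). In that setting the Elav and FoxL2 ranges overlapped. FoxL2 minus SoxC was -30.6 points (exact permutation, p = 0.0253, adjusted p = 0.131), where 17.2% of 29 clusters passed. Elav minus SoxC was 3.51 points (exact permutation, adjusted p = 0.839), where 0.0% of 22 passed.

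The green share of pl1 cells had a common slope of 5.59 points per day within lines, which did not pass (permutation, p = 0.0249, adjusted p = 0.132), where 5.41% of 37 clusters passed. In Elav the green share per dissociation was 22.2% at day 2, 25.0% and 30% at day 4, and 22.2%, 60.0% and 80.0% at day 7. In SoxC it was 0% at day 2, 20.0% and 42.9% at day 4, and 25.0%, 40.0%, 50% and 76.9% at day 7. In FoxL2 it was 12.5% at day 2, 0% in both dissociations of day 4, and 0% and 16.7% at day 7. The slopes of single lines were 7.13 points per day in Elav (exact permutation, p = 0.25), 0.0887 in FoxL2 (exact permutation, p = 1) and 8.24 in SoxC (exact permutation, p = 0.0762). The differences between these slopes did not pass (exact permutation, smallest adjusted p = 0.711).

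In colour, pl1 cells and the other Secretory cells of the same dissociations did not differ beyond the spread between dissociations. The green share was 29.1% ± 25.0 in pl1 and 31.6% ± 19.3 in the other Secretory cells (SD, n = 18). It was higher in pl1 in 9 dissociations and lower in 9, and the mean difference was -2.57 points (sign-flip permutation, p = 0.523, adjusted p = 0.955). In this comparison 0.0% of 31 clusters passed, with 1 at an unadjusted p under 0.05. Against all other cells the difference was -2.47 points (sign-flip permutation, adjusted p = 0.661), where 21.6% of 37 clusters passed. In the FoxL2 line pl1 was less green than the other Secretory cells in 4 of 5 dissociations, with 5.83% ± 8.12 in pl1 and 13.0% ± 7.99 in the others (SD, n = 5, exact permutation, p = 0.125). A sign-flip test of 5 pairs cannot reach 0.05. Against all other cells, with 9.14% ± 7.61 green, the FoxL2 difference was -3.31 points (exact sign-flip permutation, p = 0.313). In Elav pl1 was greener than the other Secretory cells in 4 of 6 (mean difference -1.14 points, exact permutation, p = 0.969) and in SoxC in 4 of 7 (-0.472 points, exact permutation, p = 0.984). The red share was 31.8% ± 23.6 in pl1 and 25.8% ± 12.4 in the other Secretory cells (SD, n = 18), a difference of 6.07 points that did not pass (sign-flip permutation, adjusted p = 0.309).

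Single dissociations differed more. In the SoxC dissociation of day 2, 0 of 8 pl1 cells were green, against 42.3% of 104 other Secretory cells. In 1 Elav dissociation of day 4, 30% of 10 pl1 cells were green, against 68.8% of 32 others. In the opposite direction, 1 SoxC dissociation of day 7 had 76.9% of 13 pl1 cells green, against 59.4% of 128 others.

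**Figure D5:**
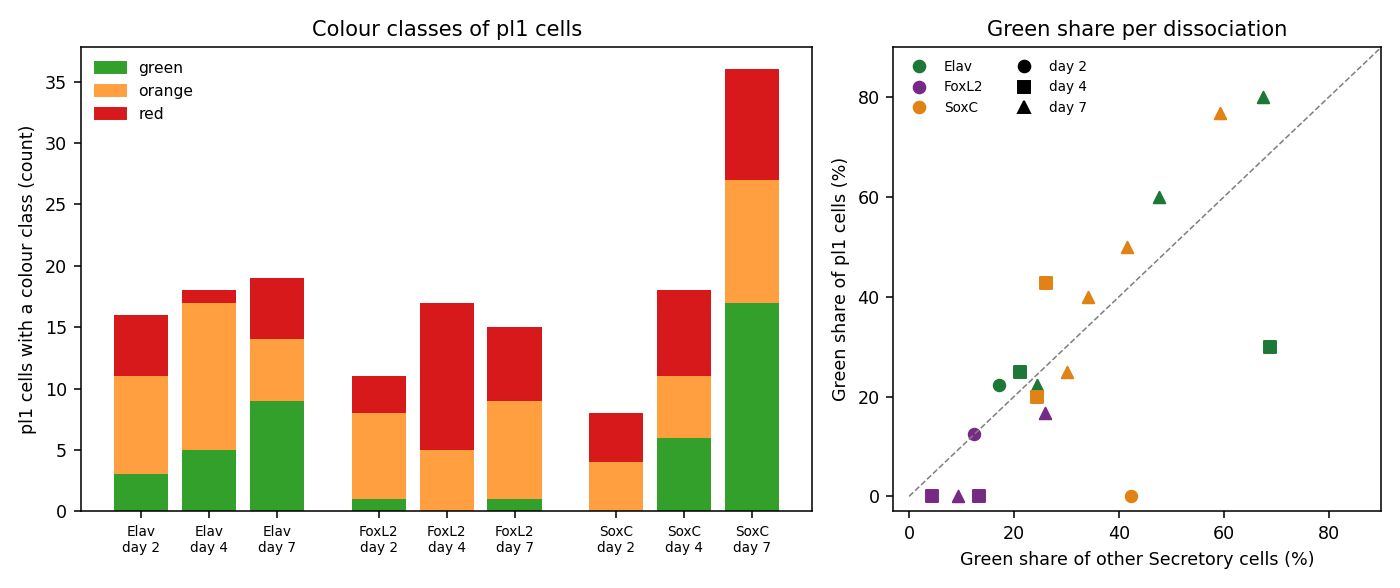
Left, number of pl1 cells with each colour class (vertical axis, cells) by line and day after photoconversion, pooled over dissociations; right, green share of pl1 cells (vertical axis, percent) against that of other Secretory cells (horizontal axis, percent) in the 18 dissociations with at least 5 coloured pl1 cells, with the dashed line at equal shares. Elav has 3, 5 and 9 green pl1 cells at days 2, 4 and 7, FoxL2 1, 0 and 1, and 9 points lie above the line and 9 below it.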

How the data were processed

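The deposited cell table lists each cell's library, dissociation, gate, fine and broad cluster and colour class, all categories set by the authors. Per the submitters' processing notes STARsolo and STAR 2.7.10b were used, and the clustering settings, cell filters, doublet treatment and colour rule are not given in the sources used here. Libraries were tied to line, day, medium and dissociation by their labels, with 0 mismatches in 12352 cells. Shares per dissociation were computed with Python 3.11.15, numpy 2.4.6 and pandas 2.3.3. Precision rests on 245 to 995 cells and 22 to 153 Secretory cells per dissociation. Tests were two-sided permutations over dissociations, exact up to 100000 arrangements and otherwise with 100000 resamples, or 20000 where a dissociation was left out. Line labels were permuted freely, days within lines, and media within line and day. Gates, and colours against other cells, were tested by sign flips within dissociations. Differences of slopes were tested on shares centred on their line, with line labels permuted within days. P-values were Benjamini-Hochberg adjusted over all fine clusters (45, or 39 within broad clusters, and over the 3 pairs of lines), with a threshold of 0.05. Green shares were adjusted over clusters with enough coloured cells. That gave 78 tests between lines, 37 by day, 37 against all other cells and 31 against the rest of the broad cluster. The single-line, gate and summed Secretory values are unadjusted. The code was tested on simulated data. Named clusters are pl1, the other Secretory clusters and its neighbours in an order. Members and lists were chosen with earlier results of these data known. Alternatives were other gates, media, weights, scales and minimum counts, and each dissociation left out. Deposited well lists gave sorted wells for 76 libraries, and the gene annotation was not used.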

Additional observations from a re-analysis of the deposited data

How the results depend on the processing

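Over 22 results, 124 alternatives other than leaving out a dissociation gave 100 with the same direction and call, 7 that lost the call, 2 that gained it and 15 that changed direction, of which 0 passed the test. Of the 100, 3 repeated the original fit exactly, such as KikGR+ alone for Elav minus SoxC, and 3 were gate fits too small to pass, which leaves 94. The cause of these changes was not tested. The untreated-only, sorted-well, NEP2/8 and mucous alternatives were chosen after seeing the data.

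Calls lost: within Secretory by line, DMSO KikGR+ cells alone 7.70 (adjusted p = 0.0583) and untreated alone 1.83 (0.640), which holds no SoxC and so tests Elav against FoxL2 only; Elav minus SoxC, DMSO alone 7.70 (0.0701) and DMSO KikGR+ alone 7.70 (0.0818); by medium, KikGR+ alone -8.38 (0.120), equal weight per library -8.57 (0.103) and at least 30 Secretory cells -10.9 (0.0508). Calls gained: within Secretory, FoxL2 minus SoxC with mucous cells counted, 7.00 (0.0302), and green share, Elav minus FoxL2 with at least 3 coloured cells, 29.9 (0.0342).

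Direction changed, for the share of all cells: FoxL2 minus SoxC in KikGR+ alone -0.167, on the logit scale -0.00670, in DMSO alone -0.732 and in DMSO KikGR+ cells -0.551. Elav minus FoxL2 was -0.739 in untreated alone and -0.197 per sorted well, and Elav minus SoxC was -0.138 per sorted well. The slope by day was 0.0251 in KikGR+ alone, 0.123 in DMSO alone, 0.00683 per sorted well and 0.0778 in strata of line and medium. Within Secretory, Elav minus FoxL2 was -1.83 in untreated alone (the same fit as above), the slope by day 0.375 in DMSO alone and 0.171 in strata of line and medium, and New minus KikGR+ 0.0716 on the logit scale.

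Leaving out each dissociation in turn gave 352 fits, of which 311 kept direction and call, 29 changed direction, 10 lost the call and 2 gained it. Of the 311, 8 left out a dissociation outside the comparison of media and 7 were gate fits too small to pass, which leaves 296. All 10 losses were in the share within Secretory by medium (-12.5 to -9.64) and both gains in FoxL2 minus SoxC within Secretory (6.57 to 8.72). The direction changed in the share of all cells by day (-0.0486 to 0.0168), Elav minus FoxL2 (-0.118 to 0.196), Elav minus SoxC (-0.0325 to 0.413), FoxL2 minus SoxC (-0.0742 to 0.355) and epithelial-depleted minus KikGR+ (-0.0340 to 2.11). It also changed within Secretory for epithelial-depleted minus KikGR+ (-1.06 to 10.7) and New minus KikGR+ (-4.56 to 3.33), and in the green share for Elav minus SoxC (-4.51 to 10.3) and pl1 against all other cells (-3.86 to 0.540).

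With at least 10 coloured cells the 6 colour results had too few dissociations for a value. No paired analysis was possible because dissociation numbers are not shared between lines; gates and colours were compared within dissociations. Limits: a median of 8 pl1 cells and 80 Secretory cells per dissociation leaves wide counting error, medium and pool cannot be told apart, day 2 of SoxC is 1 dissociation, clusters and names are the authors', and cell depth could not be compared.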
